A study of Sus scrofa with 22 samples.

Results

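The 6 genes described here belong to the red cell: the globins HBZ, HBE1 and HBB, the membrane proteins SLC4A1 and SPTB, and the haem enzyme ALAS2. They were chosen because their levels differed between groups in earlier results from these same libraries, so their values are given as a description and carry no p-value. They are 6 of 14389 pig genes to which a transcript record could be matched by RefSeq accession without its version. All 6 passed the filter on low counts in the fetus libraries and are described across all 22 libraries.

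The samples were 14 libraries of fetal body tissue and 8 libraries of embryos. Cloned fetuses, made by somatic cell nuclear transfer, were titled abnormal (2 libraries at day 30 and 2 at day 35) or normal (3 at each day), and naturally fertilized (NF) fetuses gave 2 libraries at each day. The day 6 embryos were blastocysts grown in vitro, with 2 libraries each of WT clones, XIST-KO clones, WT+Kdm4A clones and in vitro fertilized (IVF) embryos. XIST is the long RNA by which an X chromosome is silenced, and Kdm4A is a histone H3 lysine 9 demethylase. The labels give male as the sex of every group except replicate 2 of day 30 NF, given as female, and IVF, given as pooled male and female. The labels name neither the donor cell line and its clone nor the number of fetuses behind a library, so the spread between libraries may be technical, and p-values measure only that spread.

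Red cells of an early mammalian embryo carry haemoglobins built from embryonic chains, among them zeta (HBZ) and epsilon (HBE1), and these give way to chains that persist after birth, such as beta (HBB). SLC4A1, or band 3, exchanges chloride for bicarbonate across the red cell membrane and anchors its skeleton. SPTB is the beta chain of erythroid spectrin, a protein of that skeleton, and is also made in skeletal muscle. ALAS2 is the erythroid form of the first enzyme of haem synthesis and is encoded on the X chromosome. In bulk tissue, fewer red cells and less of an RNA per red cell cannot be told apart.

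Libraries differed in depth and in ways that the titles do not give. Depth, as the sum of expected counts in a library, was 0.59 to 11.54 M in fetuses and 6.45 to 20.35 M in embryos. Day 35 abnormal 2 was the shallowest fetus library, with 3.46 M in the next. The Y-linked gene EIF1AY had 0 counts in both day 35 abnormal libraries and in day 30 NF 1, all labelled male, and 33.5 CPM (counts scaled to library size) in day 30 NF 2, labelled female. In the other fetus libraries it lay between 20.5 and 52.9 CPM. Spearman's rho between day 35 abnormal 1 and 2 was 0.789, while day 30 NF 1 reached 0.908 with day 35 abnormal 2. The comparison of abnormal with normal at day 35 therefore also sets libraries without EIF1AY counts against libraries with them, and the part of this difference in any result was not tested.

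The alpha-type and beta-type globins sit in separate clusters in Sscrofa11.1, by the positions in the RefSeq gene table. HBZ lies at chr3:41490758-41492883, beside the alpha-type genes HBM and HBQ1, and a further pair of genes between HBQ1 and HBM had no matched record. HBE1 lies at chr9:4818206-4820243 and HBB at chr9:4800683-4801941. Of the genes between them, LOC100621288 had 0 counts in all 22 libraries and LOC100515788 had no matched record. SLC4A1 is at chr12:18957813-18975266, SPTB at chr7:88812717-88954471 and ALAS2 at chrX:47871519-47896041. The expected counts of HBZ, HBE1 and SLC4A1 were whole numbers, within 0.005, in 22 of 22 libraries. Those of HBB were whole in 19, so in 3 normal libraries some reads had been divided between HBB and another record.

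HBZ and HBE1 were abundant in cloned fetuses at day 30 and nearly absent from NF fetuses at both days. Levels are compared between genes in TPM, the abundance of a transcript scaled by its length. At day 30 HBZ stood at 1420, 3000 and 2000 TPM in the 3 normal libraries, at 480 and 2070 TPM in the 2 abnormal ones and at 0 and 1.47 TPM in the 2 NF ones. At day 35 it stood at 14.6, 45.3 and 43.2 TPM in normal, at 1960 and 0 TPM in abnormal and at 0.52 and 0.51 TPM in NF. All 3 day 30 normal libraries therefore lay above all 3 day 35 normal ones, and every normal library lay above every NF library.

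HBE1, the embryonic beta-type chain, was also highest in day 30 normal and lowest in NF. At day 30 it stood at 2940, 6700 and 6040 TPM in normal, at 718 and 2400 TPM in abnormal and at 0.51 and 4.87 TPM in NF. At day 35 it stood at 37.3, 122 and 34.9 TPM in normal, at 4210 and 0 TPM in abnormal and at 5.03 and 2.86 TPM in NF. Both abnormal libraries were below all normal ones at day 30, and at day 35 one abnormal library was above and the other below them. HBZ and HBE1 moved together: Pearson's r of log2(CPM + 1) over the 14 fetus libraries, which share groups and depth, was 0.99. The ratio of HBZ to HBE1 in TPM was 0.331 to 0.483 in day 30 normal, 0.668 and 0.86 in day 30 abnormal and 0.466 in day 35 abnormal 1. In the day 35 normal libraries, where both were low, it was 0.391, 0.372 and 1.24.

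**Figure D1:**
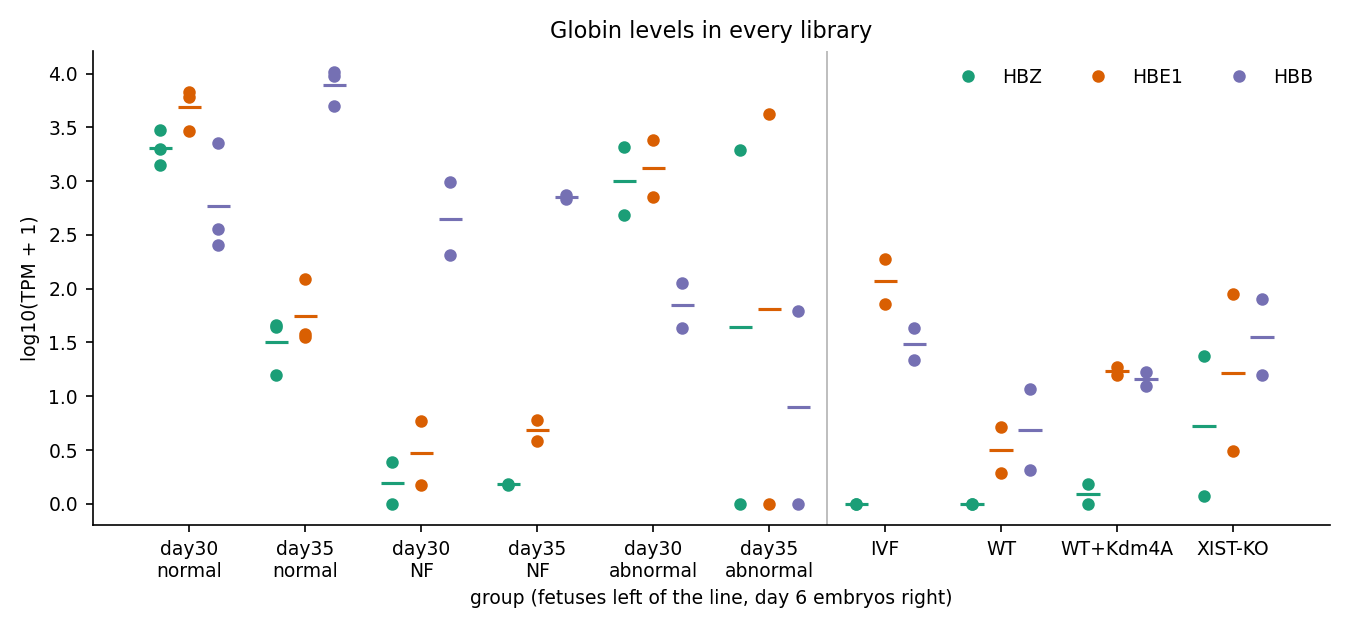
Level of HBZ, HBE1 and HBB as log10(TPM + 1) in each of the 22 libraries, by titled group; points are libraries and bars the mean of the log values. In normal fetuses HBZ and HBE1 are high at day 30 and low at day 35 while HBB is highest at day 35, and in NF fetuses HBB alone of the 3 globins is above a few TPM.

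HBB, the beta chain of the adult pig, had a different order. At day 30 it stood at 254, 358 and 2260 TPM in normal, at 42.5 and 113 TPM in abnormal and at 204 and 981 TPM in NF. At day 35 it stood at 5040, 9480 and 10300 TPM in normal, at 61.7 and 0 TPM in abnormal and at 746 and 689 TPM in NF. The day 35 normal libraries were the 3 highest, all 4 abnormal libraries were the lowest, and the ranges of day 30 normal, day 30 NF and day 35 NF overlapped. The r of HBB with HBZ was -0.06 and with HBE1 -0.04 over the 14 fetus libraries.

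The balance of the beta-type chains in fetuses lay towards HBE1 in day 30 normal and abnormal libraries and almost wholly towards HBB in the others that had counts, except day 35 abnormal 1. HBB made up 7.91% (95% Wilson interval 7.02 to 8.9), 5.05% (4.67 to 5.47) and 27.1% (26.3 to 28.0) of HBB plus HBE1 counts in the 3 day 30 normal libraries. In the day 35 normal libraries it made up 99.3% (99.0 to 99.4), 98.7% (98.5 to 98.9) and 99.7% (99.5 to 99.8). The 4 NF libraries lay between 99.3% and 99.8% at both days, so the day 30 NF libraries already held the balance that normal clones held at day 35. Abnormal libraries stayed at the embryonic end, with 5.57% (3.83 to 8.03) and 4.46% (3.56 to 5.57) at day 30 and 1.44% (1.1 to 1.89) in day 35 abnormal 1. Day 35 abnormal 2 had no count of either chain and gives no share. These intervals cover counting error only, and reads without molecular identifiers are not independent molecules.

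**Figure D2:**
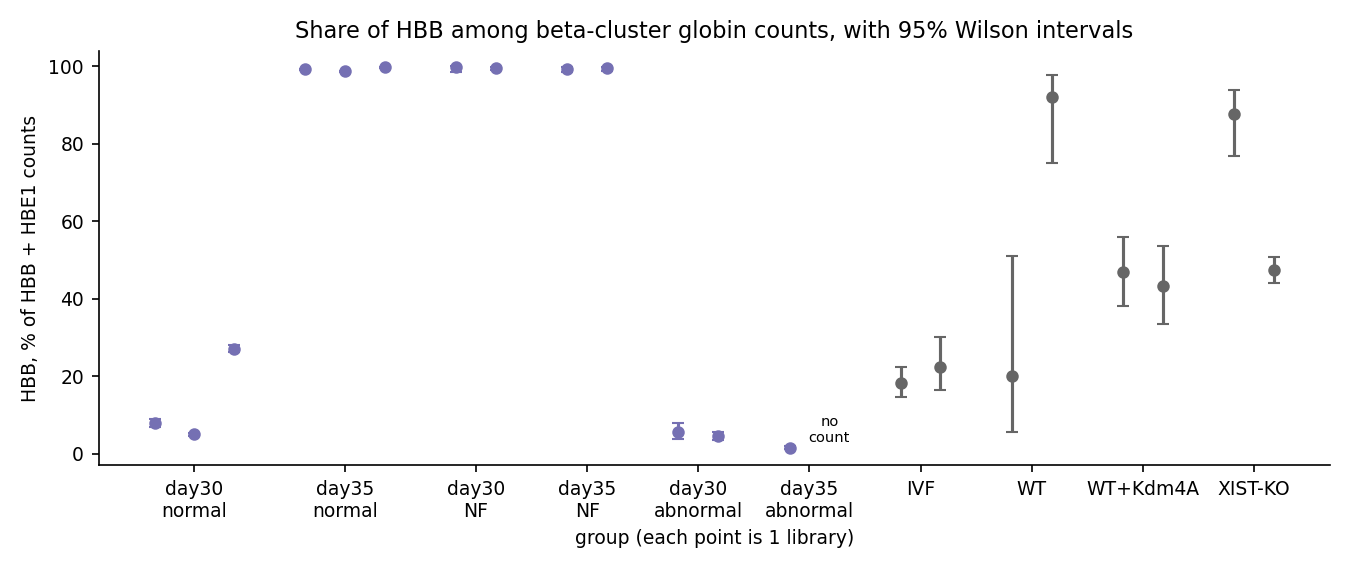
HBB as a percentage of HBB plus HBE1 expected counts in each library, with 95% Wilson intervals for counting error. Day 35 normal and all NF libraries lie above 98%, day 30 normal and abnormal libraries lie at or below 27.1%, and embryo libraries are spread between 18.2% and 92.0%.

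The summed level of the 3 globins changed less across days in normal clones than any one of them. Together they held 0.462%, 1.01% and 1.03% of TPM in day 30 normal and 0.509%, 0.965% and 1.04% in day 35 normal, so these ranges overlapped. NF libraries held 0.0205% to 0.0988%, below every normal library. The abnormal libraries held 0.124% and 0.459% at day 30 and 0.624% and 0% at day 35. The adult alpha chain HBA had no matched record, so these sums leave it out in every library.

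SLC4A1 was high in a single group of fetuses. Within one gene, levels are given as CPM scaled by the trimmed mean of M values (TMM). SLC4A1 stood at 18.1, 35.5 and 30.6 CPM in day 30 normal, at 0 and 2.99 CPM in day 30 abnormal and at 0 CPM in both day 30 NF libraries. At day 35 it stood at 0.673, 2.37 and 2.28 CPM in normal, at 0.767 and 0 CPM in abnormal and at 0.513 and 0.349 CPM in NF, the last pair being 3 and 2 counts. The day 30 normal libraries were the 3 highest of all fetus libraries and did not overlap with any other group. Against a floor of 3 counts per library, day 30 normal was at least 61.4-fold higher than day 30 NF and at least 21.4-fold higher than day 30 abnormal 1.

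SPTB, unlike the other membrane gene, was higher in normal clones at day 35. It stood at 22.9, 36.4 and 35.4 CPM in day 30 normal and at 115, 73.0 and 54.8 CPM in day 35 normal. The abnormal libraries stood at 24.9 and 19.7 CPM at day 30 and at 2.30 and 5.40 CPM at day 35, and the NF libraries at 2.32 and 1.22 CPM and at 2.05 and 1.05 CPM. Day 30 abnormal overlapped with day 30 normal in CPM, while in TPM it lay below, at 2.21 and 1.66 against 2.93, 4.87 and 4.73. Day 35 abnormal lay below day 35 normal with no overlap.

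SPTB counts came from different transcript records in different groups. The gene had 3 matched records, of 10180, 7292 and 7097 bases. In day 30 normal the 10180-base record stood at 14.4 ± 0.351 CPM (SD, n = 3) and the 7097-base record at 17.2 ± 7.82 CPM. In day 35 normal the 10180-base record stood at 77.4 ± 29.7 CPM and the 7097-base record at 0.488 ± 0.842 CPM. The 7097-base record therefore held 35.8%, 61.4% and 59.3% of SPTB counts in the 3 day 30 normal libraries and was near 0 in day 35 normal. Day 30 abnormal libraries had 0 counts of the 7097-base record and 22.3 ± 3.68 CPM (SD, n = 2) of the 10180-base record. Day 35 abnormal libraries had the 7097-base record alone, at 2.30 and 5.40 CPM, which are 6 and 2 counts. Counts were divided between these records by the authors' quantification, so a gene-level SPTB value mixes transcripts that behaved differently.

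**Figure D3:**
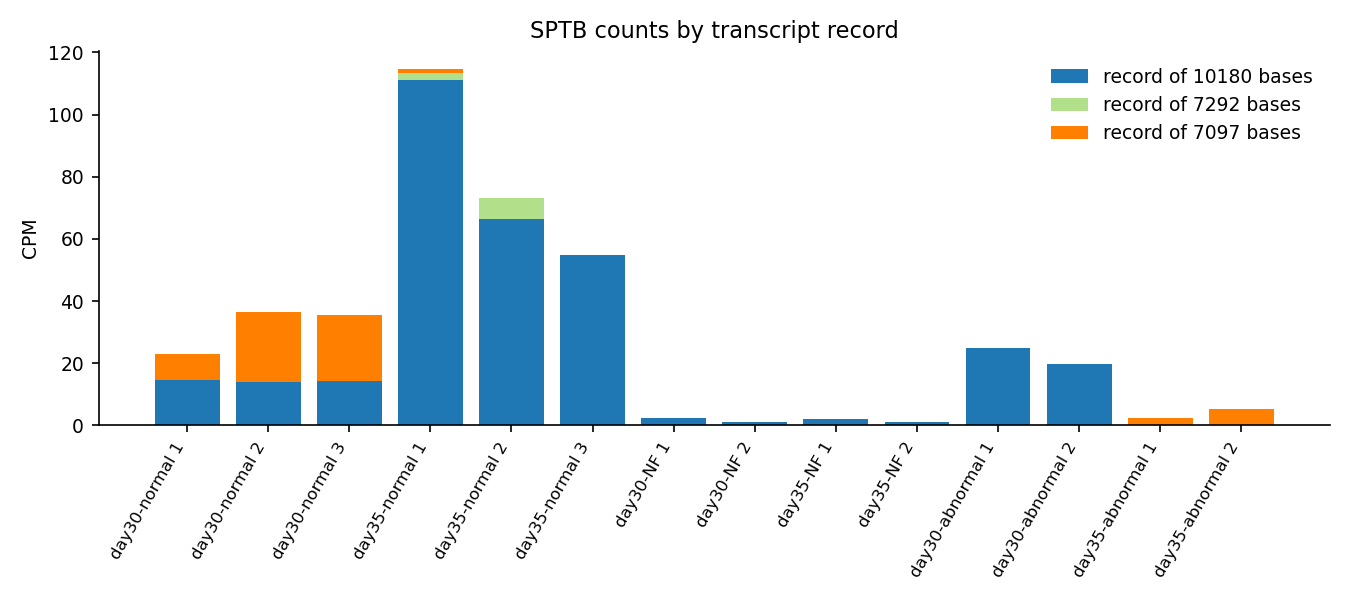
SPTB level in each fetus library in CPM, stacked by transcript record (10180, 7292 and 7097 bases). Both long and short records are present in day 30 normal libraries, whereas the 10180-base record makes up most of the signal in day 30 abnormal, day 35 normal and NF libraries.

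ALAS2, which sets the rate of haem synthesis in red cells, was high in normal clones at both days. It stood at 26.3, 42.3 and 55.7 CPM in day 30 normal and at 34.5, 60 and 66.2 CPM in day 35 normal, with overlap. The abnormal libraries stood at 6.12 and 12.4 CPM at day 30 and at 7.67 and 0 CPM at day 35. The NF libraries stood at 1.77 and 10.2 CPM at day 30 and at 6.67 and 5.24 CPM at day 35. Every normal library lay above every abnormal and NF library. The 2005-base record held most of its counts, at 39.7 ± 14.7 CPM in day 30 normal and 51.0 ± 16.2 CPM in day 35 normal.

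**Figure D4:**
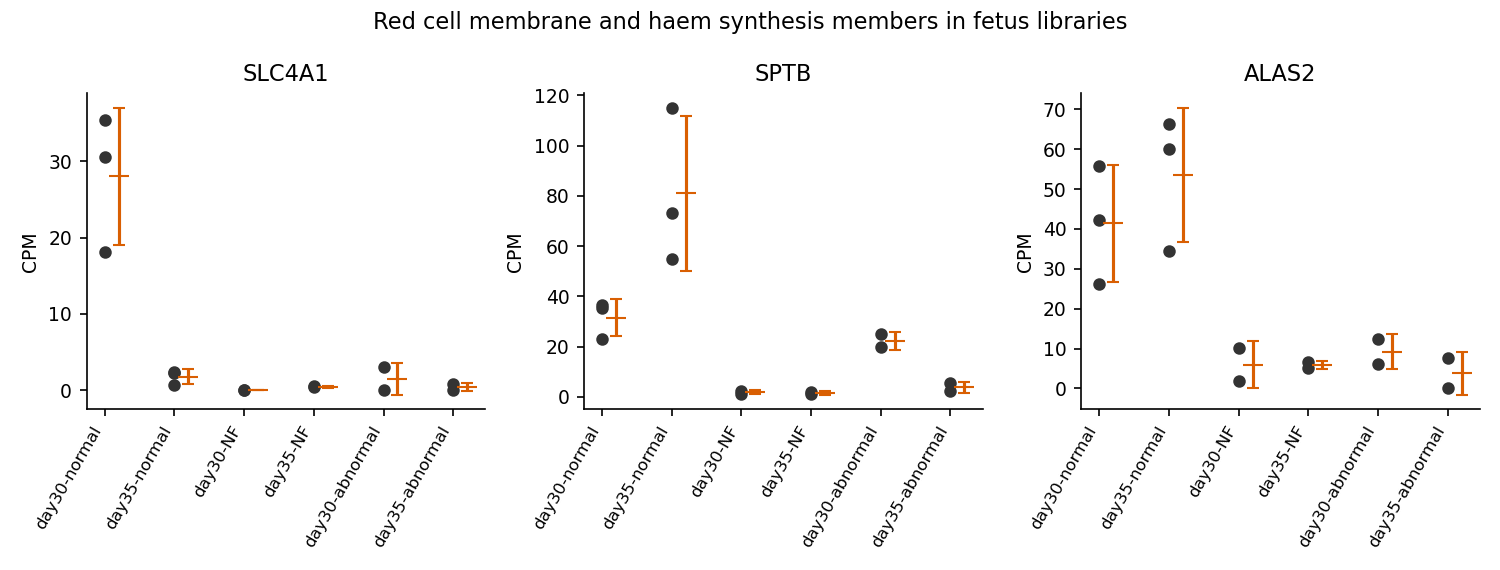
SLC4A1, SPTB and ALAS2 in CPM in each of the 14 fetus libraries, by group; points are libraries and orange marks the mean ± SD. SLC4A1 is high in day 30 normal alone (18.1 to 35.5 CPM), SPTB is highest in day 35 normal (54.8 to 115 CPM) and ALAS2 is high in normal fetuses at both days.

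Abnormal and normal clones differed in most members at day 30, all in one direction. The libraries did not overlap for 4 of 6 members, HBE1, HBB, SLC4A1 and ALAS2, each lower in abnormal, beside 33.3% of all 9911 genes tested that were lower without overlap. Since the members were chosen on this contrast, nothing is read from that count. HBB had a log2 fold change of -3.40 ± 1.06 (estimate ± SE from edgeR), at 21.3 ± 14 CPM (SD, n = 2) against 225 ± 260 CPM (SD, n = 3). Without day 30 normal 3, the library highest in HBB, the log2 fold change was -1.82. The log2 fold change was -1.56 ± 1.22 for HBE1, -4.20 ± 0.90 for SLC4A1 and -2.16 ± 0.70 for ALAS2. HBZ, at -0.53 ± 1.09, and SPTB, at -0.51 ± 0.38, overlapped between the groups in CPM.

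At day 35 abnormal clones lay below normal clones in HBB, SPTB and ALAS2, again read against 25.9% of all genes that were lower without overlap. HBB stood at 9.78 ± 13.8 CPM (SD, n = 2) in abnormal and 2090 ± 737 CPM (SD, n = 3) in normal. ALAS2 stood at 3.84 ± 5.43 CPM against 53.6 ± 16.8 CPM. Day 35 abnormal 2 had 0 counts of both genes. The normal mean was at least 258-fold above the 3-count floor of that library in HBB and at least 6.62-fold in ALAS2. These bounds are for day 35 abnormal 2 alone and not for the group, since day 35 abnormal 1 had counts of both genes. Without day 35 abnormal 2, the log2 fold change was -6.70 for HBB and -2.76 for ALAS2. That of SPTB was -4.83 ± 0.58, with -3.92 without day 35 abnormal 1 and -5.08 without day 35 abnormal 2. HBZ and HBE1 had log2 fold changes of 5.25 ± 1.22 and 5.42 ± 1.30, which rested on day 35 abnormal 1. The other abnormal library had 0 counts of both, and its 3-count floor of 8.09 CPM lies close to the normal means of 12.0 and 16.1 CPM, so no direction can be read from it. SLC4A1 overlapped, at -1.39 ± 1.31. No member was higher without overlap, beside 17.1% of all genes.

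Normal clones and NF fetuses, which share the normal libraries with the comparisons above, differed in 5 members at day 30 and in all 6 at day 35. All of these were higher in normal without overlap, beside 33.2% of all genes at day 30 and 37.7% at day 35. None was lower without overlap, where 32.6% of all genes were at day 30. HBE1 was 2110-fold higher in mean CPM at day 30 and 16.9-fold higher at day 35. Its day 30 log2 fold change of 11.02 ± 2.07 was 10.18 without day 30 NF 1 and 12.91 without day 30 NF 2. SPTB was 17.8-fold and 52.2-fold higher, and ALAS2 6.91-fold and 8.99-fold higher. HBB overlapped at day 30, at 225 ± 260 CPM (SD, n = 3) against 134 ± 113 CPM (SD, n = 2), and its log2 fold change of 0.75 ± 0.90 became -0.83 without day 30 normal 3. At day 35 HBB was 12.1-fold higher, at 2090 ± 737 CPM against 172 ± 6.69 CPM. Day 30 NF 2 is the only fetus library labelled female, and with labelled sex in the model the day 30 contrast rests on NF 1. The log2 fold change was then 2.05 for HBB, 3.76 for SPTB and 4.53 for ALAS2. Those of HBZ, HBE1 and SLC4A1 stayed positive and are not given, since NF 1 held 1 count of HBE1 and 0 of the other two.

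From day 30 to day 35, normal clones lost the embryonic globins and gained HBB. HBZ went from 718 ± 290 to 12.0 ± 5.92 CPM (SD, n = 3 each), a 59.6-fold lower mean, and HBE1 from 1270 ± 506 to 16.1 ± 11.7 CPM, a 78.9-fold lower mean. HBB went from 225 ± 260 to 2090 ± 737 CPM, a 9.28-fold higher mean, and its log2 fold change of 3.21 ± 0.85 was 4.79 without day 30 normal 3. SLC4A1 went from 28.1 ± 8.97 to 1.77 ± 0.956 CPM and SPTB from 31.6 ± 7.52 to 80.9 ± 30.9 CPM. These 5 did not overlap between days, 3 lower and 2 higher, beside 23.5% of all genes lower and 29.3% higher. ALAS2 overlapped, with a log2 fold change of 0.37 ± 0.53. In NF fetuses the members overlapped between days except SLC4A1, which had 0 counts at day 30 and 3 and 2 counts at day 35. There 12.3% of all genes were higher without overlap.

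The other genes of red cell formation were taken from 5 lists: haem synthesis and iron supply, other globins, membrane and skeleton, regulators, and enzymes of red cell maturation. They named 80 genes, of which 52 had a matched record and 48 were tested. AHSP, the chaperone of alpha chains, and the adult alpha chain HBA had no matched record. Many genes of haem synthesis and iron supply are also expressed outside red cells. The lists were chosen with earlier results of these data known. A list count set beside the share of all genes is therefore a description and not a test of the list.

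The membrane list held a larger share of calls than all genes in day 30 normal clones against NF fetuses. At day 30, 8 of 13 membrane genes rose and 1 fell in normal against NF (adjusted p under 0.05, edgeR quasi-likelihood test with Benjamini-Hochberg adjustment), where 14% of all genes rose and 15.3% fell. The median log2 fold change of the list was 2.29, that of all genes -0.0. Of the 8 that rose, RHAG was tested only through day 30 normal libraries, where it was high. Without day 30 normal 2 or 3 it missed the filter on low counts, and its call was lost with labelled sex in the model. EPB42, a band 3 binding protein, rose to 6.84 ± 2.17 CPM (SD, n = 3) from 0.281 ± 0.182 CPM (SD, n = 2, edgeR adjusted p = 0.00325). AQP1, a water channel also made by endothelium, fell to 5.46 ± 0.986 from 43.3 ± 17.9 CPM (edgeR adjusted p = 0.0136). The call of EPB42 held with each library left out. That of AQP1 was lost without day 30 normal 3 or day 30 NF 2, with an adjusted p of up to 0.0948, and with labelled sex in the model.

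Regulators of red cell formation moved in both directions in the same comparison, 6 of 13 up and 2 down. KLF1, an activator of beta-type globin genes, was at 2.48 ± 1.11 against 0.0682 ± 0.0965 CPM (edgeR adjusted p = 0.0135), NFE2 at 3.81 ± 0.472 against 0.205 ± 0.289 CPM (edgeR adjusted p = 0.0106) and GATA1 at 1.3 ± 0.153 against 0.0682 ± 0.0965 CPM (edgeR adjusted p = 0.042). RUNX1, which acts in blood stem cells, fell to 3.5 ± 0.804 from 55.0 ± 22.2 CPM (edgeR adjusted p = 0.000106) and ZBTB7A to 12.4 ± 3.1 from 44.3 ± 1.42 CPM (edgeR adjusted p = 0.00182). HBM, an alpha-type globin beside HBZ, rose to 9.15 ± 3.06 from 0.152 ± 0.216 CPM (edgeR adjusted p = 0.00714). The calls of RUNX1, ZBTB7A and HBM held with each library left out. The calls of KLF1 and NFE2 were lost without day 30 NF 2, with adjusted p of up to 0.0985 and 0.073, and both were lost with labelled sex in the model. KLF1 was not tested without day 30 normal 2, where it missed the filter on low counts. The low count gene GATA1 kept its call in 4 of 14 fits that left out a library and lost it with labelled sex, DESeq2, limma on TPM, no filter, the replicate block and version matching.

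At day 35, 5 of 13 membrane genes rose and 1 fell in normal against NF, beside 22.1% of all genes that rose and 20.1% that fell. In either direction this was 46.2% of the list, beside 42.3% of all genes. DMTN, an actin-bundling protein of the red cell skeleton, rose to 31.1 ± 13.8 from 3.2 ± 0.171 CPM (edgeR adjusted p = 0.000333) and RHCE to 2.44 ± 0.882 from 0.0874 ± 0.124 CPM (edgeR adjusted p = 0.0029). BCL11A, a repressor of embryonic and fetal globin genes, rose to 44.5 ± 9.54 from 3.96 ± 2.38 CPM (edgeR adjusted p = 0.0013). The calls of DMTN, RHCE and BCL11A held with each library left out. Of the 13 regulators tested, BCL11A alone was called higher, and 3 were called lower: RUNX1, ZBTB7A and KLF3. BCL11A was also called higher in normal against NF at day 30, a call lost with labelled sex in the model. The globins HBM and HBQ1 also rose, to 10.9 ± 4.24 from 0.781 ± 0.378 CPM (edgeR adjusted p = 0.0145) and to 6.56 ± 0.548 from 1.21 ± 0.0183 CPM (edgeR adjusted p = 0.00681), and both calls were lost without day 35 NF 1 or 2. TFRC, the transferrin receptor, fell to 26.5 ± 3.75 from 120 ± 12.2 CPM (edgeR adjusted p = 0.00286). Over all 5 lists 12 rose and 7 fell, or 39.6% of those tested, beside 42.3% of all genes called in either direction. At day 30, 16 rose and 4 fell, or 41.7%, beside 29.3% of all genes.

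Between abnormal and normal clones the lists were called about as often as all genes. At day 30, 3 of 48 genes rose and 4 fell, or 14.6%, beside 8.93% of all genes that rose, 6.46% that fell and 15.4% in either direction. TFRC rose to 342 ± 30.3 from 53.0 ± 4.39 CPM (edgeR adjusted p = 0.00347), a call that held with each library left out. GFI1B, an erythroid and megakaryocyte repressor, was at 2.59 ± 0.572 CPM in abnormal and at 0 counts in all 3 normal libraries, at least 3.58-fold higher (edgeR adjusted p = 0.0244). This rests on 5 and 7.09 expected counts. The call was lost without any one of the day 30 normal libraries, with DESeq2 and with the replicate block. Without day 30 abnormal 1 or 2 or day 35 abnormal 1 the gene missed the filter on low counts and was not tested, so it was tested only through its abnormal libraries. UROD, an enzyme of haem synthesis, fell to 26.0 ± 2.84 from 57.9 ± 7.18 CPM (edgeR adjusted p = 0.0192) and lost its call without either abnormal library, without day 30 normal 2 or 3 and with the replicate block.

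At day 35, 5 of the 48 rose and 7 fell in abnormal clones, or 25%, beside 10.9% of all genes that rose, 12.3% that fell and 23.2% in either direction. TFRC rose again, to 308 ± 294 from 26.5 ± 3.75 CPM (edgeR adjusted p = 0.000601). TAL1, a transcription factor of blood and endothelial precursors, fell to 0.959 ± 1.36 from 18.2 ± 2.09 CPM (edgeR adjusted p = 0.00387). LMO2, which acts with TAL1, fell to 15.4 ± 6.48 from 72.2 ± 6.67 CPM (edgeR adjusted p = 0.00888), and DMTN to 2.69 ± 0.0084 from 31.1 ± 13.8 CPM (edgeR adjusted p = 0.00175). These 4 calls held with each library left out. TFRC stood at 515 and 99.8 CPM in the 2 abnormal libraries and had a log2 fold change of 3.60 ± 0.45, or 1.90 without day 35 abnormal 1. TAL1 had 5 and 0 counts in them and LMO2 had 52 and 4. In day 35 abnormal 2 DMTN lay below the 3-count floor of 8.09 CPM, so its small SD does not show precision. LMO2 lost its call with version matching. TAL1 and TFRC lost their calls when only the compared groups were fitted.

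The day 35 difference between abnormal and normal itself departed from the day 30 difference in 2 of the 48 genes, or 4.17%, beside 4.05% of all genes (1.31% with a higher and 2.73% with a lower value). TAL1 had a difference of differences of -4.27 ± 0.75 on the log2 scale (edgeR adjusted p = 0.0142) and DMTN one of -2.98 ± 0.67 (edgeR adjusted p = 0.0365). In day 35 abnormal 2 both genes lay below the 3-count floor of 8.09 CPM. Without day 30 abnormal 2 the adjusted p of TAL1 was 0.0538, and DMTN kept its call in 4 of 14 fits that left out a library and lost it with the replicate block and with only the compared groups.

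From day 30 to day 35 in normal clones no gene of the lists rose and 8 of 48 fell (16.7%), beside 5.35% of all genes that rose, 3.84% that fell and 9.19% in either direction. Of these, 4 were membrane genes, from a list whose median log2 fold change was -0.86 against 0.07 for all genes. RHAG, a Rh-associated glycoprotein, fell from 3.31 ± 1.44 to 0.274 ± 0.159 CPM (edgeR adjusted p = 0.0254) and EPB42 from 6.84 ± 2.17 to 1.41 ± 0.409 CPM (edgeR adjusted p = 0.0417). KLF1 fell from 2.48 ± 1.11 to 0.0761 ± 0.132 CPM (edgeR adjusted p = 0.0237) and NFE2 from 3.81 ± 0.472 to 0.502 ± 0.554 CPM (edgeR adjusted p = 0.0396). None of the 8 calls held in every fit that left out a library. Those of RHAG, EPB42, KLF1 and NFE2 were each lost without at least 3 libraries, with adjusted p of up to 0.122, 0.176, 0.11 and 0.17, and with the replicate block. Without day 30 normal 2 or 3 RHAG missed the filter on low counts and was not tested. The same held for KLF1 without day 30 normal 2. RHAG and KLF1 were thus tested only through day 30 normal libraries, where they were high. In NF fetuses 0 of the 48 genes passed the edgeR test between days, as did 0% of all genes, with 2 of the 48 at an unadjusted p under 0.05.

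**Figure D5:**
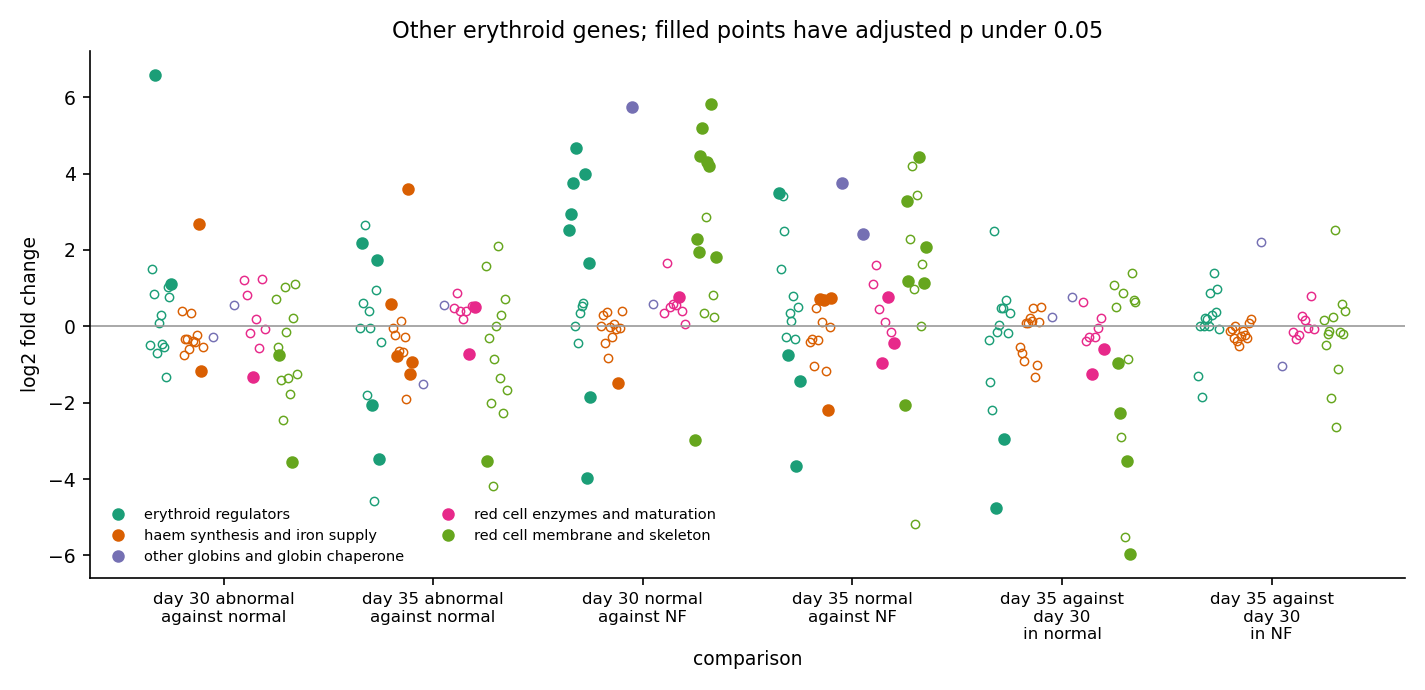
Log2 fold change of the other red cell genes in each comparison of fetus groups, by list; filled points have an adjusted p under 0.05 in edgeR. Membrane genes lie mostly above 0 in normal against NF at both days, and the 4 filled membrane points in day 35 against day 30 of normal clones lie below 0.

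The genes whose pattern was most like each member differed in kind. Likeness was Pearson's r of log2(CPM + 1) over the 14 fetus libraries, which share groups, depth and the zeros of day 35 abnormal 2, and the 3 closest genes were taken for each member. SLC4A1 had AMBN (0.943), which encodes an enamel matrix protein, among its 3 closest. SPTB was closest to TNNT1 (0.976) and ACTA1 (0.971), which encode a slow muscle troponin and skeletal muscle actin, and to GBX2 (0.966). TNNT1 stood at 160 ± 34.9 CPM in day 30 normal and 361 ± 113 CPM in day 35 normal (SD, n = 3), and ACTA1 at 37.6 ± 15.7 and 280 ± 150 CPM. HBZ was closest to PBX2 (0.966), DHX40 (0.96) and CETN3 (0.956), and HBE1 to DHX40 (0.969), PBX2 (0.953) and LRAT (0.95). HBB was closest to FRMPD1 (0.937), ARHGAP4 (0.93) and TRIM9 (0.926), and ALAS2 to LOC100739498 (0.955), ADD1 (0.95) and DAPK2 (0.943). Without day 35 abnormal 2, 0 of the 3 genes of HBB were still among its closest.

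Markers of other tissues also moved with the groups. The summed level of 5 body tissue markers of 9 listed was 2030 to 2640 CPM in day 30 normal, 412 to 766 in day 30 abnormal and 857 to 1790 in day 30 NF. At day 35 it was 3610 to 4750 CPM in normal, 216 to 1700 in abnormal, where TNNT3 was at 0, and 1000 to 1120 in NF. The summed level of 7 endothelial markers of 10 listed was 495 to 523 CPM in day 30 normal, 832 to 1200 in day 30 abnormal and 139 to 616 in day 30 NF. It was 593 to 673 CPM in day 35 normal, 27.0 to 141 in day 35 abnormal and 605 to 677 in day 35 NF. The summed level of 13 leukocyte markers of 14 listed was 48.6 to 63.8 CPM in day 30 normal, 153 to 241 in day 30 abnormal and 98.5 to 108 in day 30 NF. It was 156 to 240 CPM in day 35 normal, 48.6 to 89.0 in day 35 abnormal, where PTPRC was at 0, and 103 to 118 in day 35 NF.

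The 8 blastocyst markers, among them the epithelial keratins KRT8 and KRT18, were highest in 3 of the 4 abnormal libraries. They summed to 2630 and 2020 CPM in day 30 abnormal, 212 to 272 in day 30 normal and 78.1 to 84.1 in day 30 NF. At day 35 they summed to 5430 CPM in abnormal 1 and 208 in abnormal 2, 263 to 398 in normal and 58.3 to 93.0 in NF. POU5F1 was at 0 in both abnormal groups and in day 30 normal, and CDX2 in day 30 normal, day 35 abnormal and both NF groups.

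Liver and platelet markers were likewise uneven. The 10 liver markers summed to 73.1 to 105 CPM in day 30 normal, 50.2 and 1740 in day 30 abnormal and 23.8 to 33.6 in day 30 NF. At day 35 they summed to 167 to 238 CPM in normal, 21.6 to 46.0 in abnormal and 25.5 to 28.0 in NF. AFP was at 0 in both NF groups, and APOA2 was at 0 in all fetus groups but day 30 abnormal. The 8 platelet markers of 9 listed, of which PPBP was at 0 throughout, summed to 26.6 to 39.7 CPM in normal, 29.9 to 64.2 in abnormal and 105 to 243 in NF over both days. The part of any of these tissues in the levels of HBZ, HBE1, HBB, SLC4A1, SPTB and ALAS2 was not tested.

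In the day 6 embryos each globin lay below its level in every day 30 normal fetus library, and the membrane genes were almost undetected. Embryo libraries were scaled apart from fetus libraries, so levels are given in TPM. HBE1 stood at 4.17 and 0.92 TPM in WT, at 2.08 and 87.5 in XIST-KO, at 17.8 and 14.8 in WT+Kdm4A and at 190 and 70.8 in IVF. HBB stood at 1.05 and 10.7 TPM in WT, at 14.9 and 79.2 in XIST-KO, at 15.9 and 11.4 in WT+Kdm4A and at 42.5 and 20.7 in IVF. Both IVF libraries lay above both WT libraries in both genes, and XIST-KO 2 was far above XIST-KO 1. The 190 TPM of HBE1 in IVF 1 lay above every day 35 normal library, at 34.9 to 122 TPM, and every NF library, at up to 5.03 TPM.

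HBZ, the embryonic alpha-type chain, had counts in 3 of 8 embryo libraries and reached 22.6 TPM in XIST-KO 2, from 146 counts. SLC4A1 had 0 counts in 8 of 8, where a floor of 3 counts corresponds to 0.181 to 0.522 CPM. ALAS2 had counts in 2 of 8 and SPTB in 4 of 8, at no more than 0.32 and 0.15 TPM. The share of HBB in HBB plus HBE1 counts was 18.2% (95% Wilson interval 14.6 to 22.4) and 22.5% (16.4 to 30.1) in IVF, and 47.0% (38.2 to 56.0) and 43.3% (33.6 to 53.6) in WT+Kdm4A. In WT it was 20.0% (5.67 to 51.0) and 92.0% (75.0 to 97.8), from 10 and 25 counts. In XIST-KO it was 87.7% (76.8 to 93.9), from 57 counts, and 47.4% (44.1 to 50.8), from 839 counts. Blastocyst markers were abundant in every embryo library, at a summed 35300 to 101000 CPM over 8 genes, although NANOG and SOX2 were at 0 in the 3 cloned groups. The 7 endothelial markers summed to at most 29.7 CPM in the embryos.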

How the data were processed

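The deposited tables, 1 per library, give for 65927 RefSeq transcript records the expected count and, per the file headers, the TPM. The authors made both with RSEM 1.2.4 on Sscrofa11.1, per the submitters' processing notes; no source used here names the aligner. Records were matched to symbols by accession without version, 25305 of them (38.4%) to 14389 genes, and 4758 (7.22%) with version. Matched genes held 0.41 to 7.65 M counts per fetus library and 5.13 to 17.04 M per embryo library. Expected counts and TPM were summed per gene.

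Counts of the 14 fetus libraries were rounded, filtered with filterByExpr (9911 genes), scaled by TMM and fitted as 6 group means with edgeR 4.0.16 in R 4.3.3. Quasi-likelihood F-tests were adjusted by Benjamini-Hochberg over all genes, with a threshold of 0.05. The biological coefficient of variation was 0.29. Embryo libraries were scaled apart and not tested. The 6 members and all gene lists were chosen with earlier results of these data known, so the members have no p-value and are given as CPM, TPM and log2 fold change with SE. Libraries do not overlap where every value of one group lies above every value of the other. List genes were named by size of change among calls, up to 3 per direction and list, of which those shown are a part. Floors are 3 counts per library and, like intervals, allow for counting error alone.

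Each result was recomputed with DESeq2 1.42.0, with limma 3.58.1 on log2(TPM + 1), with RLE size factors, without a filter or with one at 1 CPM in 2 libraries, with labelled sex or a replicate block in the model, with no groups beyond those compared, with version matching, without each of 14 libraries in turn, and for likeness a pseudocount of 0.1 in place of 1. The fit was tested on simulated data. Python 3.11.15 with pandas 2.3.3, numpy 2.4.6, scipy 1.17.1 and matplotlib 3.10.9 served for tables and plots. Sequences of promoters and proteins were not used here. Some further genes of the lists are not reported here.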

Additional observations from a re-analysis of the deposited data

Results flagged for a closer look

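TAL1 differed between days in its abnormal against normal change, with a difference of differences of -4.27 ± 0.75 on the log2 scale (edgeR adjusted p = 0.0142): it fell in abnormal clones at day 35, where it stood at 0.959 ± 1.36 against 18.2 ± 2.09 CPM. DMTN differed likewise, by -2.98 ± 0.67 (edgeR adjusted p = 0.0365). In day 35 abnormal 2 both genes lay below the 3-count floor. SLC4A1 was lower at day 35 than at day 30 in normal clones, by a log2 fold change of -3.99 ± 0.70, and every NF library at day 35 lay above both at day 30. The NF values are 3 and 2 counts against 0 and 0, and the difference between normal and NF was not tested.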

How the results depend on the processing

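Of the alternative values of member log2 fold changes, 865 moved by less than the pooled SD of libraries within the compared groups and 65 by more. These include changes of sign in values smaller than their SE, such as HBB in normal against NF at day 30 (0.75 ± 0.90). Another 5 changed sign in values larger than their SE, all without day 35 abnormal 1. Of these, HBZ and HBE1 did so in abnormal against normal at day 35 (-8.78 to 6.24 and -9.22 to 6.42 over all fits that left out a library). HBZ, HBE1 and SLC4A1 did so in the difference of that change between days (-8.26 to 7.26, -7.67 to 8.17 and -1.84 to 8.74). The abnormal library left there had 0 counts of these genes and a 3-count floor of 8.09 CPM, close to or above their normal levels at day 35, so no reversal can be read from it. The counts of other red cell genes called depended on the fit. For abnormal against normal at day 30 the 7 became 13 on TPM, 19 with only the compared groups, 2 with the replicate block and 2 with version matching, and 1 to 14 with a library left out. At day 35 the 12 became 2 with only the compared groups, 7 with the block and 4 with version matching, and 6 to 19 with a library left out. For normal against NF at day 30 the 20 became 12 with labelled sex as a covariate and 8 with version matching (17 with the block), and 11 to 26 with a library left out. At day 35 the 19 became 7 with version matching (15 with the block), and 10 to 27. For day 35 against day 30 in normal the 8 became 20 with only the compared groups, 3 with the block and 1 with version matching, and 0 to 14. In NF the 0 became 1 with labelled sex as a covariate, stayed 0 with the block, and ran from 0 to 1. For the difference between days the 2 became 4 with DESeq2, 1 with the block and 0 with version matching, and 0 to 7. Version matching tested 21 of the 48 genes. On TPM, where the median of all genes was -0.27 at day 30 and -0.32 at day 35, the calls in abnormal against normal were 2 higher and 11 lower at day 30 and 1 and 14 at day 35. With RLE size factors the median of all genes in normal against NF at day 35 was 0.14, against 0.06. The replicate numbers do not pair libraries: correlations of their deviations ran from -0.0751 to 0.0736. The genes most like HBB shared 0 of 3 without day 35 abnormal 2. Other causes of these moves were not tested. A count of motifs in promoters was planned and not run.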
